A study of Homo sapiens with 9 samples.

Results

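The mitochondrial ribosomal protein genes were taken as all rows of the deposited table whose symbol reads MRPL or MRPS followed by a number and, for some, a letter from A to C. This rule used names alone and found 78 of 60591 gene symbols, of which 49 carry the large-subunit prefix MRPL and 29 the small-subunit prefix MRPS. Messenger RNA was sequenced from undifferentiated Caco-2 cells (uCaco-2), an established line from a human colon adenocarcinoma that is used as a model of intestinal epithelium. Cells received fresh medium (control), medium with 300 μM cobalt(II) chloride (CoCl2) or medium with 5 μM of an oxyquinoline derivative (OD), and were lysed after 24 h. All 3 groups contained 0.5% DMSO, the solvent of OD, and each group had 3 libraries labelled as replicates of the same line. Both agents activate signalling through hypoxia-inducible factor (HIF), and the design asks how each of them, at its own dose, changes mRNA levels against control cells.

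The mitochondrial ribosome translates the few mRNAs that mitochondrial DNA encodes, all of them for subunits of the respiratory chain and ATP synthase. Its ribosomal RNAs come from mitochondrial DNA, whereas every one of its proteins is encoded in the nucleus, made in the cytosol and imported. Some of these proteins have counterparts in bacterial ribosomes and others are found in mitochondria alone. Intestinal epithelial cells rely on respiration in their normal state, and cells short of oxygen lower their use of it.

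Libraries held 15998136 to 18298190 counts in control cells, 16286502 to 24209427 after CoCl2 and 16387054 to 19623776 after OD. The TMM factors, by which edgeR corrects a library's total for differences in RNA composition, were 1.11 to 1.12 in control, 0.770 to 0.795 in CoCl2 and 1.14 to 1.15 in OD libraries, so CoCl2 values depend most on the scaling. Levels are given as CPM on this scale, that is, as counts relative to a library total of fixed size. Of 10 markers of intestinal epithelium 9 passed the count filter and CDX1 had no count. The summed level of the list was 11205 to 11723 CPM in control, 13549 to 14506 CPM in CoCl2 and 10608 to 11173 CPM in OD libraries, and as a share of all counts it was 1.28 ± 0.0288%, 1.10 ± 0.0410% and 1.25 ± 0.0259% (SD, n = 3). Of the 9 tested markers 7 were higher after CoCl2 (77.8%, against 40.4% of all tested genes) at an edgeR adjusted p under 0.05. The other 2 were lower (22.2%, against 42.8%). With library totals alone as the scale, 1 was higher and 7 lower. The 2 lower ones on the TMM scale, VIL1 and KRT20, were downregulated past a log2 fold change of 1. VIL1, a brush border protein, was at 613 ± 18.3 CPM in control, 112 ± 6.28 CPM in CoCl2 and 454 ± 8.08 CPM in OD cells, and KRT20, a keratin of intestinal epithelium, at 4.49 ± 0.396, 1.74 ± 0.978 and 5.77 ± 0.247 CPM. Summed levels were at most 33.4 CPM for 6 fibroblast markers, 58.7 CPM for 5 leukocyte markers and 3.49 CPM for 4 endothelial markers, with DCN and PTPRC at 0 to 3 counts in every library. The replicates are described as biological and all come from the same cell line, so p-values measure the spread between samples of this line.

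Of the 78 genes, 77 passed the count filter of edgeR. The exception was MRPL53, with 1 count in 1 CoCl2 library and no count in the other libraries. Its exons share 72.8% of their bases with CCDC142 on the same strand, and the handling of such reads is not given in the sources used here. In all, 41 of the 78 genes share exonic bases with another gene of GENCODE release 44 and 18 share them on the same strand, which makes their counts uncertain.

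Divided by the length of the main transcript, the level of the 77 genes in control cells had a median of 40.8 CPM per kilobase and ranged from 1.35 to 189.8. Highest stood MRPL51, a mitochondria-specific protein of the large subunit, at 189.8 ± 6.04 CPM per kilobase, then MRPL27, which reaches towards the catalytic centre, at 176 ± 10.6 and MRPL21 at 163 ± 7.45 (SD, n = 3). Neighbours among these 3 differed by less than the sum of their SDs, while the fourth gene, MRPL11, followed at 122.7. The lowest tested genes were MRPS24 at 1.35 ± 0.118 CPM per kilobase and MRPL38 at 2.30 ± 0.254, and both share exonic bases with a readthrough or overlapping gene on the same strand. The median level was 30.6 CPM per kilobase after CoCl2 and 29.4 after OD. MRPL27 ranked highest in both, at 312 ± 15.1 and 153 ± 3.55, and MRPL32 moved from rank 9 in control to rank 2 in CoCl2 cells.

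Promoters from RefSeq, 250 bases before to 50 after the start, were matched by symbol for 69 of the 78 genes. They are shown because short letter runs bound by known factors could be counted in them, and no link between these runs and the responses was tested. The letters AAGATGGCG, which YY1 binds, stood on either strand in 13 of the 69 promoters (18.8%), against 1.85% of all 27305 promoters in the table and 3.78% of the 10907 promoters of tested genes. Of the 14 matches 10 began after the transcription start, between 6 and 35 bases past it. The following sites of genes described below are printed 5′ to 3′ with 10 bases on either side, on the strand that holds the letters, with the match in capitals (GRCh38.p14).
MRPL38, chr17:75904860-75904888, minus strand: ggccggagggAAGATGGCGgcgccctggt
MRPL46, chr15:88467362-88467390, minus strand: gggagaacgaAAGATGGCGgcgcccgtaa
MRPS18A, chr6:43687764-43687792, minus strand: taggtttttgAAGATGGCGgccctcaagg
MRPS18B, chr6:30617853-30617881, plus strand: ggcgtacgtcAAGATGGCGgcgtctgtat
MRPS24, chr7:43869480-43869508, minus strand: cgcttggcccAAGATGGCGgcctccgtgt
MRPS30, chr5:44808950-44808978, plus strand: atcgcgggcaAAGATGGCGgcggccaggt
MRPL32, chr7:42932143-42932171, minus strand: tcttcgggtaAAGATGGCGgagcgcgggt

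An ETS motif searched as CCGGAAGT was in 11 of 69 promoters (15.9%), against 4.44% of all promoters and 8.42% of those of tested genes. The core GCATGCGC, which the factor NRF1 binds, was in 6 (8.70%), against 3.27% and 5.25%. The hypoxia response core ACGTG was in 19 of 69 (27.5%), against 26.5% of the promoters of tested genes, and its variant GCGTG was in 39 (56.5%) against 5455 of the 10907 promoters of tested genes. The E-box CACGTG, which always contains ACGTG, was in 6 (8.70%) against 9.98%. None of the 6 runs was found in 12 promoters, and a match is a run of letters and not a measured binding site. Genes with the YY1 letters had a median log2 fold change of -0.09 after CoCl2 and those without of -0.52. After OD the medians were -0.50 and -0.47, given as a description of 13 and 55 tested genes. Other runs also split the CoCl2 medians, with and without the run. They were -0.004 and -0.40 for the NRF1 core, -0.21 and -0.40 for ETS and -0.04 and -0.35 for the E-box. The order was reversed for ACGTG, at -0.58 and -0.25, and for GCGTG, at -0.39 and -0.21. None of these differences was tested.

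The 120 bases before the start of 4 genes, chosen after their values were seen for their contrasting responses, are printed on the strand of the gene, with every match to the 6 runs, on either strand, in capitals (GRCh38.p14). MRPL12 fell most after both agents and has no match here, MRPL20 fell after both, MRPL17 fell after CoCl2 and did not pass the test after OD, and MRPL32 rose after CoCl2.
MRPL12, chr17:81703247-81703366, plus strand: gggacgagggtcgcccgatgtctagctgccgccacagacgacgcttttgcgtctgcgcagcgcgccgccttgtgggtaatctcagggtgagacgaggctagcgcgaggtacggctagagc
MRPL20, chr1:1407294-1407413, minus strand: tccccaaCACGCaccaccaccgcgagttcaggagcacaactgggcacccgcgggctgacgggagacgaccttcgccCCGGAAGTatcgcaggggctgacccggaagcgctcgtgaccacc
MRPL17, chr11:6683341-6683460, minus strand: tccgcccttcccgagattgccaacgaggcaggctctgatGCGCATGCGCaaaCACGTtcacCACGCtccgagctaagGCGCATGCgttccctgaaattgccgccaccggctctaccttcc
MRPL32, chr7:42932256-42932375, plus strand: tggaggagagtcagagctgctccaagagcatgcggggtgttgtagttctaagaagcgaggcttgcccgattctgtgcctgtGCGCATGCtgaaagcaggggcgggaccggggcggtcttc
In MRPL20 the capitals mark GCGTG on the other strand and then the ETS run. In MRPL17 they mark NRF1 cores, of which the first 2 overlap, ACGTG and GCGTG. In MRPL32 they mark an NRF1 core on the other strand.

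After CoCl2, the mitochondrial ribosomal protein genes split into a larger group that fell and a smaller group that rose. Of 77 tested genes 44 were lower and 22 higher than in control cells at an adjusted p under 0.05, where p-values came from the quasi-likelihood test of edgeR and were adjusted by the Benjamini-Hochberg method. The share that was lower was 57.1%, where 42.8% of all 15944 tested genes were lower, and the share that was higher was 28.6%, where 40.4% of all were higher. At the stricter limit of the study, which also asks for a log2 fold change beyond 1 in either direction, 16 were downregulated (20.8%, against 23.4% of all tested genes) and 4 upregulated (5.19%, against 19.9%). With library totals alone as the scale, 35 were downregulated (45.5%, against 36.6% of all tested genes) and 1 upregulated (1.30%, against 11.5%). The median log2 fold change of the 77 genes was -0.28, beside -0.05 for all tested genes. The 3 CoCl2 libraries lay entirely below the 3 control libraries for 44 genes and entirely above for 23, where 42.9% and 40.5% of all genes did so. In bulk RNA, fewer cells of a type and less RNA per cell cannot be told apart.

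**Figure D1:**
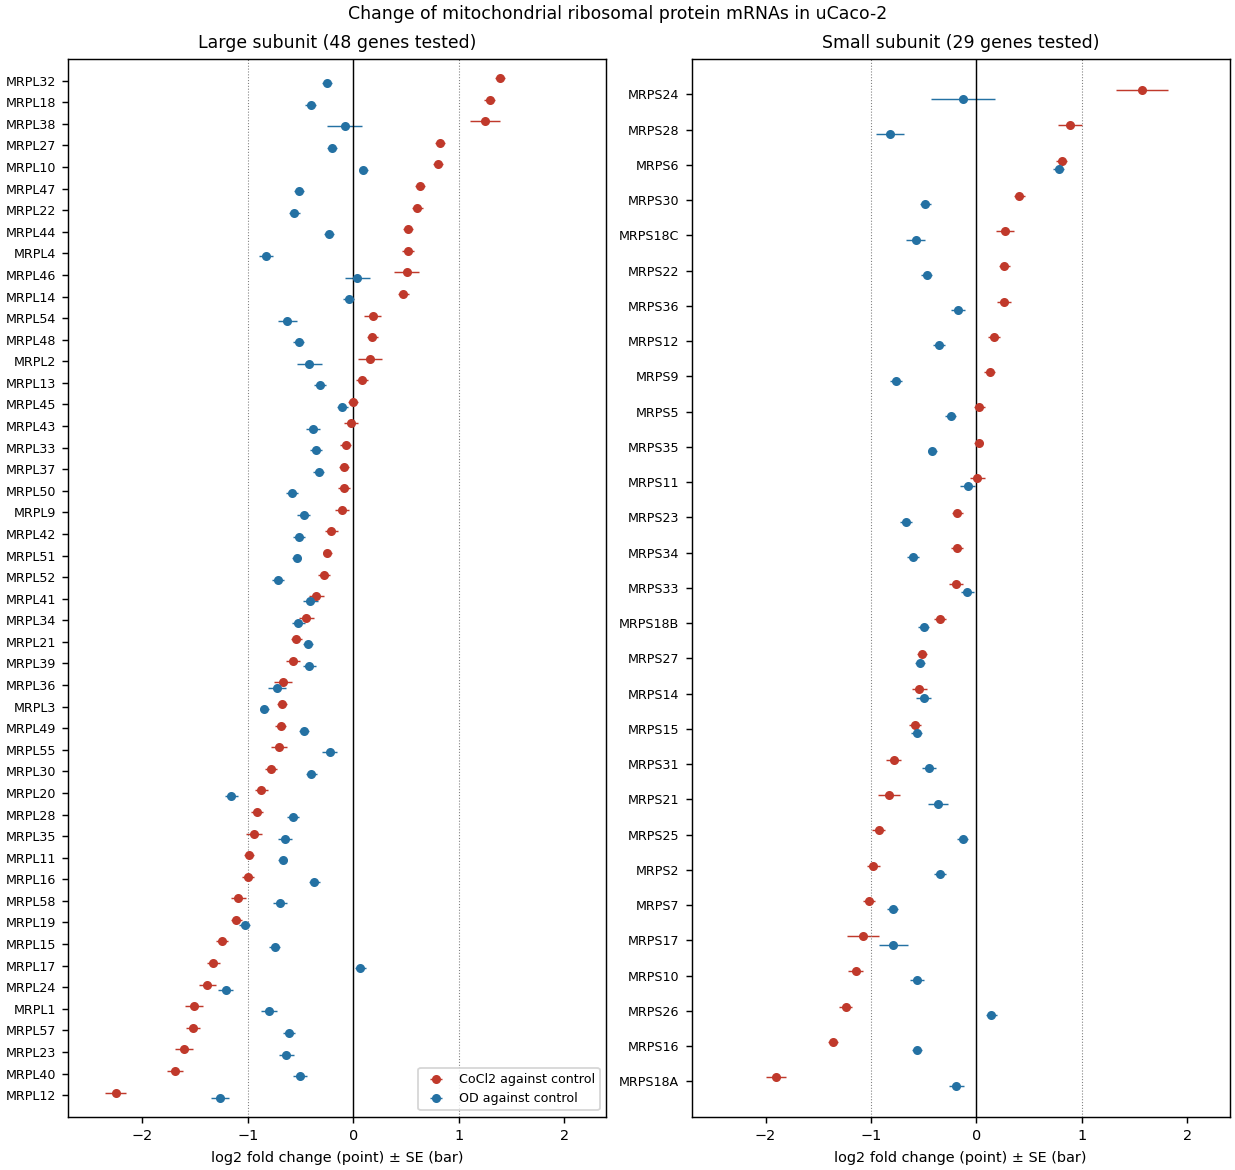
Log2 fold change against control (points) with its standard error (bars) for the tested large-subunit (left) and small-subunit (right) genes, CoCl2 in red and OD in blue, ordered by the CoCl2 value, with dotted lines at -1 and 1. CoCl2 values run from -2.25 to 1.57, and the quartiles of the OD values are -0.62 and -0.32.

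MRPL12, the counterpart of the bacterial stalk protein that recruits translation factors, fell most. Its levels were 24.2, 24.0 and 28.2 CPM in control, 5.29, 4.80 and 5.77 CPM in CoCl2 and 10.3, 11.7 and 9.74 CPM in OD libraries. The 3 groups did not overlap, with CoCl2 lowest. The log2 fold change was -2.25 ± 0.101 for CoCl2 (SE, edgeR adjusted p = 4.7e-30), a 4.76-fold lower level, and -1.26 ± 0.083 for OD (edgeR adjusted p = 4.75e-21). The gene lies at chr17:81703367-81707517 on the plus strand (GRCh38), and an overlapping gene on the same strand holds 69.5% of its exon sequence.

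MRPS18A, MRPL40, MRPL23 and MRPL57 followed. MRPS18A, a paralog of bacterial S18 that sits in the large subunit in spite of its name, had 23.7, 22.1 and 23.7 CPM in control, 6.10, 5.49 and 6.76 CPM in CoCl2 and 20.4, 19.9 and 20.4 CPM in OD libraries. Its fall was strong after CoCl2, by 1.90 ± 0.094 on the log2 scale (edgeR adjusted p = 8.49e-28), and small after OD, by 0.19 ± 0.072 (edgeR adjusted p = 0.0171). MRPL40, a mitochondria-specific protein at chr22:19432545-19436075, had 42.1, 38.0 and 41.2 CPM in control, 12.9, 12.1 and 12.5 CPM in CoCl2 and 30.1, 27.5 and 27.8 CPM in OD libraries, and no other annotated gene shares its exons. These groups did not overlap either, and the log2 fold changes were -1.69 ± 0.075 and -0.50 ± 0.062. MRPL23, a protein near the exit of the nascent chain, went from 30.8 ± 2.27 CPM to 10.0 ± 1.70 CPM after CoCl2 and 19.9 ± 1.00 CPM after OD (SD, n = 3). MRPL57, a small mitochondria-specific protein, went from 49.8 ± 0.571 CPM to 17.5 ± 0.708 and 32.6 ± 0.979 CPM. The other downregulated genes were MRPL1, MRPL24, MRPS16, MRPL17, MRPL15, MRPS26, MRPS10, MRPL19, MRPL58, MRPS17 and MRPS7, with log2 fold changes of -1.51 to -1.02.

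MRPL32, MRPL18, MRPL38 and MRPS24 were upregulated after CoCl2. MRPL32, a large-subunit protein whose maturation by the m-AAA protease precedes ribosome assembly, had 74.1, 68.2 and 69.7 CPM in control, 191, 183 and 183 CPM in CoCl2 and 59.7, 58.1 and 60.4 CPM in OD libraries. Every CoCl2 library was above and every OD library below every control library. The log2 fold change was 1.40 ± 0.047 for CoCl2 (edgeR adjusted p = 9.08e-37) and -0.25 ± 0.050 for OD (edgeR adjusted p = 1.16e-05). MRPL18, a protein of the central protuberance, had 61.8, 60.2 and 62.4 CPM in control, 159, 149.5 and 144 CPM in CoCl2 and 46.4, 45.1 and 47.9 CPM in OD libraries. It showed the same order of groups, with log2 fold changes of 1.29 ± 0.049 and -0.40 ± 0.053 (edgeR adjusted p = 9.02e-34 and 8.69e-10). With library totals alone as the scale the CoCl2 values of MRPL32, MRPL18 and MRPL38 were 0.89, 0.79 and 0.74, under the limit of 1.

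MRPL38 and MRPS24 rest on few counts. MRPL38, another protein of the central protuberance, had 49 to 70 counts per control library and 100 to 143 per CoCl2 library, with a log2 fold change of 1.25 ± 0.144 (edgeR adjusted p = 6.43e-12). MRPS24, the counterpart of bacterial S3, had 15 to 19 and 36 to 54 counts, with 1.57 ± 0.247 (edgeR adjusted p = 4.93e-08). Exonic bases shared on the same strand made up 41.1% in MRPL38 and 23.2% in MRPS24. Of the 60 tested genes without such sharing 13 were downregulated after CoCl2 (21.7%, against 23.4% of all tested genes). The 2 upregulated ones (3.33%, against 19.9%) were MRPL32 and MRPL18.

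After OD, most of these genes fell, with changes of similar size. Of the 77 genes 66 were lower at an adjusted p under 0.05 (85.7%, against 33.3% of all tested genes) and 3 higher (3.90%, against 32.3%). The OD libraries lay entirely below the control libraries for 67 genes and above for 2, where 34.3% and 33.7% of all genes did so. The median log2 fold change was -0.48, beside -0.01 for all tested genes, and the distance from the lower to the upper quartile was 0.308 log2 units, beside 0.763 for all genes. Past the log2 limit of 1, 4 genes were downregulated (5.19%, against 4.16%) and 0 upregulated (against 9.09%) by edgeR, and DESeq2 also called 0 upregulated, while 3 were higher at an unadjusted p under 0.05.

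**Figure D2:**
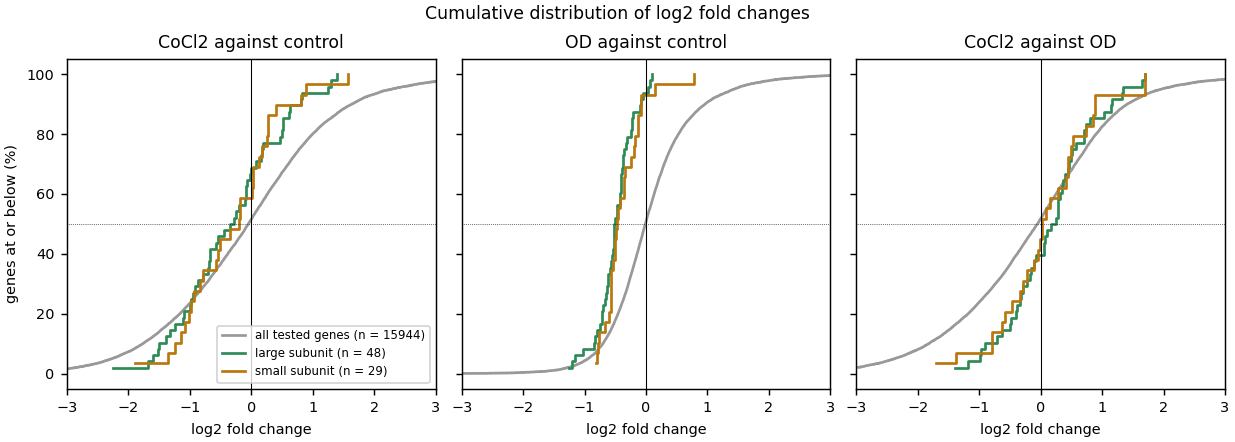
Cumulative percentage of genes at or below each log2 fold change for the 48 tested large-subunit genes (green), the 29 small-subunit genes (orange) and all 15944 tested genes (grey). After OD the curves of both subunits are steep and lie left of all genes, with medians of -0.51 and -0.47, and after CoCl2 they are broad.

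MRPL12, MRPL24, MRPL20 and MRPL19 were downregulated after OD, all of them large-subunit proteins with bacterial counterparts. MRPL24, at chr1:156737303-156741590 and without any shared exonic base, had 32.5, 29.9 and 33.4 CPM in control, 12.5, 12.1 and 12.1 CPM in CoCl2 and 13.5, 14.5 and 13.3 CPM in OD libraries. Both treated groups lay below control, and their log2 fold changes were -1.38 ± 0.079 for CoCl2 and -1.21 ± 0.073 for OD (edgeR adjusted p = 7.5e-25 and 6.39e-23). MRPL20 had 56.5, 55.2 and 56.4 CPM in control, 30.4, 28.0 and 32.7 CPM in CoCl2 and 24.3, 24.6 and 26.6 CPM in OD libraries. Here OD was lowest, with a log2 fold change of -1.16 ± 0.061 against -0.87 ± 0.061 for CoCl2. MRPL19 went from 83.5 ± 1.70 CPM to 38.8 ± 1.49 CPM after CoCl2 and 41.1 ± 1.69 CPM after OD (SD, n = 3), and its OD value of -1.03 was under the limit, at -0.96 to -0.99, with a GC correction or the library-total or upper-quartile scale. Without OD replicate 2 it was -0.99. MRPL12, MRPL20 and MRPL19 share exonic bases on the same strand, and without such genes MRPL24 is the 1 called gene of 60 (1.67%, against 4.16% of all tested genes). The next in order, MRPL3, a core protein of the large subunit, had 143, 139 and 147 CPM in control and 77.7, 80.0 and 81.2 CPM in OD libraries, a log2 fold change of -0.84 ± 0.047.

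**Figure D3:**
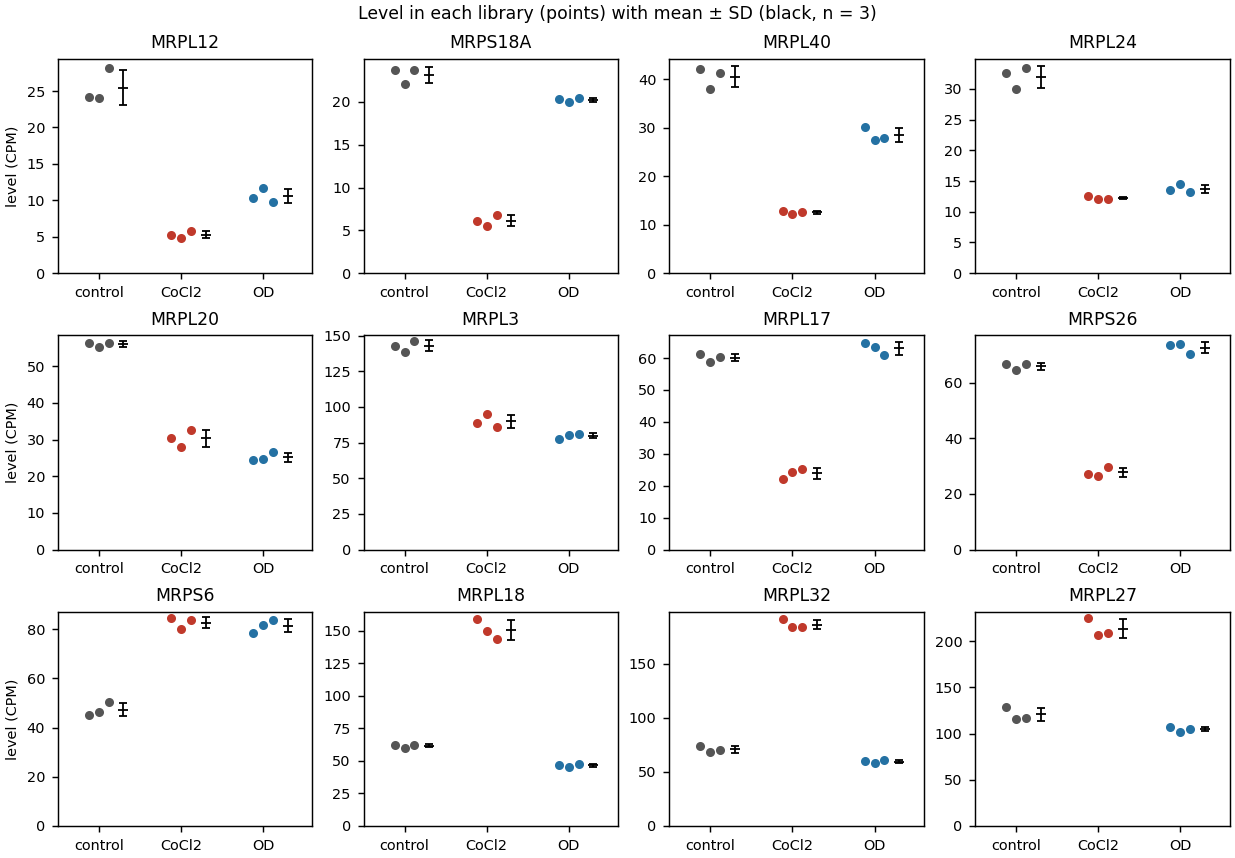
Level in CPM in each of the 9 libraries (points), with the mean and SD of 3 libraries (black), for 12 genes in control, CoCl2 and OD cells. MRPL12, MRPL24, MRPL20 and MRPL3 are lower in both treated groups, MRPS18A, MRPL17 and MRPS26 are much lower in CoCl2 libraries, MRPS6 is higher in both treated groups and MRPL18, MRPL32 and MRPL27 are higher in CoCl2 libraries.

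The 3 genes that rose after OD were MRPS6, MRPS26 and MRPL10. MRPS6, the counterpart of bacterial S6, had 45.2, 46.2 and 50.5 CPM in control, 84.4, 80.1 and 83.6 CPM in CoCl2 and 78.5, 81.7 and 83.8 CPM in OD libraries. Both treated groups lay above control and overlapped each other, with log2 fold changes of 0.81 ± 0.054 and 0.78 ± 0.053 (edgeR adjusted p = 1.26e-21 and 9.6e-21). Its exons share 6.20% of their bases with SLC5A3, a myo-inositol transporter gene, on the same strand. MRPS26, a mitochondria-specific protein, had 66.6, 64.5 and 66.8 CPM in control, 27.1, 26.6 and 29.7 CPM in CoCl2 and 73.5, 74.1 and 70.4 CPM in OD libraries. Its log2 fold change was 0.14 ± 0.051 for OD (edgeR adjusted p = 0.0132), which turned to -0.14 with a GC correction, and -1.24 ± 0.059 for CoCl2, which came to -0.82 with that correction and was no longer called. MRPL10, which anchors the stalk formed by MRPL12, had 132, 119 and 129 CPM in control and 139, 137 and 132 CPM in OD libraries, which overlapped, with a log2 fold change of 0.10 ± 0.044 (edgeR adjusted p = 0.0494) that turned to -0.03 with a GC correction. After CoCl2 it was at 218, 219 and 228 CPM, a rise of 0.81 ± 0.044. MRPL17 did not pass the test after OD, with 0.07 ± 0.053 (edgeR adjusted p = 0.255), and stood at 61.3, 58.9 and 60.3 CPM in control, 22.0, 24.5 and 25.4 CPM in CoCl2 and 64.8, 63.3 and 61.0 CPM in OD libraries. MRPL46 at 0.04 ± 0.117, MRPL38 at -0.08 ± 0.164 and MRPS24 at -0.13 ± 0.301 did not pass either, and the sign of each turned when 1 OD library was left out, to -0.08 for MRPL46 and 0.08 for MRPL38 without replicate 1 and to 0.16 for MRPS24 without replicate 2.

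CoCl2 and OD were then compared directly, which shows how the 2 agents at these doses differ without drawing on the control libraries for the means. The CoCl2 cells had higher levels for 38 of the 77 genes (49.4%, against 40.2% of all tested genes) and lower levels for 26 (33.8%, against 43.2%) at an adjusted p under 0.05. Past the log2 limit of 1, 9 were higher (11.7%, against 17.5%) and 4 lower (5.19%, against 23.8%). With library totals alone 4 were higher (5.19%, against 8.47% of all) and 16 lower (20.8%, against 37.8%). With upper-quartile factors 8 were higher (10.4%, against 14.7%) and 7 lower (9.09%, against 26.7%). With a GC correction 9 were higher (11.7%, against 18.4%) and 2 lower (2.6%, against 20.2%). The median difference was 0.10, with values from -1.71 to 1.71, and its sign turned with library totals alone (-0.45) and with upper-quartile factors (-0.03).

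Genes that were higher with CoCl2 included MRPS28, which had 6.35, 5.59 and 5.27 CPM in control, 11.0, 10.1 and 10.6 CPM in CoCl2 and 3.50, 3.06 and 3.19 CPM in OD libraries. The 3 groups were apart, and CoCl2 exceeded OD by 1.71 ± 0.123 on the log2 scale (edgeR adjusted p = 5.56e-20). MRPS24, MRPL18, MRPL32, MRPL4, MRPL38, MRPL22, MRPL47 and MRPL27 were the other 8, with differences of 1.70 to 1.03. MRPL27 had 129, 116 and 117 CPM in control, 226, 207 and 209 CPM in CoCl2 and 107, 102 and 105 CPM in OD libraries. Its difference lost the call with library totals alone (0.48), upper-quartile factors (0.90), at least 10 counts in every library (0.98), no count filter (0.96) and without CoCl2 replicate 1 (0.99), and that of MRPL38 with library totals alone (0.79). Lower with CoCl2 were MRPS18A by -1.71 ± 0.095, MRPL17 by -1.39 ± 0.061, MRPS26 by -1.38 ± 0.058 and MRPL40 by -1.18 ± 0.077. With a GC correction MRPS26 and MRPL40 came to -0.69 and -0.94 and were no longer called.

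Summed over all 78 genes, the level was 4699 ± 83.9 CPM in control, 4188 ± 57.1 CPM in CoCl2 and 3476 ± 34.7 CPM in OD cells (SD, n = 3). No library of 1 group reached the range of another, which was 4611 to 4778, 4127 to 4240 and 3439 to 3508 CPM. As a share of all counts, without any scaling, the same genes made up 0.514% to 0.529% in control, 0.323% to 0.334% in CoCl2 and 0.395% to 0.399% in OD libraries, so the order of the treated groups depends on the scaling and both lay below control either way. Within a library the ratio of large-subunit to small-subunit sums does not depend on scaling, and it was 1.79 ± 0.004 in control, 2.06 ± 0.009 in CoCl2 and 1.70 ± 0.034 in OD cells. The CoCl2 libraries, at 2.05 to 2.07, were all above the control libraries at 1.788 to 1.794, and the OD libraries, at 1.66 to 1.73, all below. These sums weigh genes by their level, so the ratio does not describe most genes of a subunit. Of 48 tested large-subunit genes 13 were higher after CoCl2 (27.1%, against 40.4% of all tested genes) and 27 lower (56.25%, against 42.8%). Their median log2 fold change was -0.31, beside -0.20 for the small subunit.

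**Figure D4:**
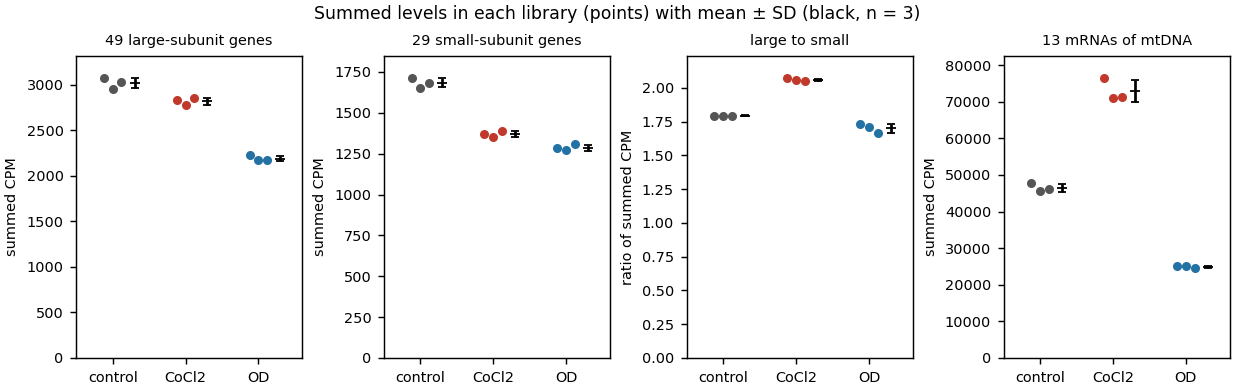
Summed CPM of large-subunit and small-subunit genes, the ratio of these sums, and summed CPM of the 13 mRNAs of mitochondrial DNA in each library (points), with the mean and SD of 3 libraries (black). On this TMM scale both subunits are highest in control, and the mRNAs of mitochondrial DNA are highest in CoCl2 and lowest in OD libraries.

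Median changes of the subunits were close to each other. The 48 tested large-subunit genes had medians of -0.31 after CoCl2 and -0.51 after OD. After CoCl2 10 of them were downregulated (20.8%) and 3 upregulated (6.25%). For the 29 small-subunit genes the medians were -0.20 and -0.47, with 6 downregulated (20.7%) and 1 upregulated (3.45%) after CoCl2. Of all tested genes 23.4% were downregulated and 19.9% upregulated after CoCl2, so at this limit on the TMM scale neither subunit was downregulated more often. At an adjusted p under 0.05 alone, 56.25% of large-subunit and 58.6% of small-subunit genes were lower, against 42.8% of all tested genes. With library totals alone 45.5% of both subunits together were downregulated, against 36.6% of all tested genes. All 4 genes downregulated after OD were of the large subunit (8.33%, against 4.16% of all tested genes). When MRPS18A and MRPS30 are placed in the large subunit, where their proteins sit, and MRPS36 is left out, the medians after CoCl2 were -0.31 and -0.27. The 46 genes with a bacterial counterpart had a median of -0.56 after CoCl2 and the 28 mitochondria-specific genes one of -0.19, beside -0.05 over all tested genes, whereas after OD these medians were -0.52 and -0.47. After CoCl2 56.5% and 57.1% of these classes were lower at an adjusted p under 0.05, against 42.8% of all tested genes. The shares that were higher were 30.4% and 25%, against 40.4%. No test of these class differences was made.

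The 3 paralogs related to bacterial S18 differed in response. MRPS18B fell from 84.2 ± 3.46 CPM to 66.0 ± 5.02 CPM after CoCl2 and 59.5 ± 1.02 CPM after OD, by 0.35 ± 0.053 and 0.50 ± 0.052 on the log2 scale. MRPS18C had 15.3, 14.2 and 13.3 CPM in control, 18.2, 17.9 and 15.8 CPM in CoCl2 and 8.90, 9.85 and 10.0 CPM in OD libraries. Its CoCl2 value was 0.27 ± 0.086 (edgeR adjusted p = 0.0038), which turned to -0.24 with library totals alone, and its OD value was -0.58 ± 0.091. Against MRPS18A at -1.90 the CoCl2 values of the family thus spanned more than 2 log2 units within the same libraries.

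Several proteins with further roles were examined by name. MRPL58, a peptidyl-tRNA hydrolase that rescues stalled ribosomes, fell from 35.4 ± 0.266 CPM to 16.6 ± 1.04 CPM after CoCl2 and 21.9 ± 1.68 CPM after OD. MRPL44, which has a fold related to RNase III, rose after CoCl2 by 0.52 ± 0.048 and fell after OD by 0.23 ± 0.049 on the log2 scale. Across other ways of processing the counts its CoCl2 value came down to 0.01 and did not pass the test in every one. MRPS12, which takes part in decoding, had 61.9, 57.1 and 62.0 CPM in control, 64.0, 69.1 and 70.1 CPM in CoCl2 and 46.4, 49.2 and 45.7 CPM in OD libraries. MRPS30 and MRPS36, the latter also known as a subunit of the 2-oxoglutarate dehydrogenase complex, were at 0.41 ± 0.053 and 0.26 ± 0.068 after CoCl2 and at -0.48 ± 0.055 and -0.18 ± 0.068 after OD. With library totals alone the CoCl2 values of MRPS12, MRPS30 and MRPS36 turned to -0.34, -0.10 and -0.24.

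Partner genes were taken as whole lists. At an adjusted p under 0.05, 42.8% of all tested genes were lower and 40.4% higher after CoCl2. After OD these shares were 33.3% and 32.3%. The 5 mitochondrial ribosomal proteins with other symbols were all lower after OD at an adjusted p under 0.05, with a median of -0.50, and after CoCl2 DAP3 rose by 0.77 ± 0.041 while PTCD3 fell by 0.57 ± 0.041. Of 25 tested assembly factors 16 were lower (64%) and 4 higher (16%) after CoCl2 (median -0.33) and 17 lower (68%) after OD (median -0.28). Among them MRM1, a methyltransferase of ribosomal RNA, fell from 21.2 ± 0.889 CPM to 2.56 ± 0.148 CPM after CoCl2, MTG1, a GTPase of large-subunit assembly, from 15.5 ± 1.40 CPM to 3.07 ± 0.296 CPM, and MRM3 rose from 6.94 ± 1.01 CPM to 14.8 ± 0.472 CPM. Among 17 mitochondrial translation factors 11 were lower (64.7%) and 2 higher (11.8%) after CoCl2 (median -0.66) and 15 lower (88.2%) after OD (median -0.48). PDF, MTFMT, TACO1 and GUF1 were downregulated after CoCl2 by 1.41, 1.41, 1.27 and 1.26 on the log2 scale.

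The mRNAs that the mitochondrial ribosome translates were lower after OD, and their change after CoCl2 depended on the scaling. After OD all 13 were lower at an adjusted p under 0.05 (against 33.3% of all tested genes), with a median of -0.97, and with library totals alone again all 13, with a median of -0.93. Of all tested genes 40.4% were higher after CoCl2 on the TMM scale, and 40.2% were higher with CoCl2 than with OD. After CoCl2 all 13 were higher on the TMM scale (median 0.63). Scaling by library totals alone was planned for the mitochondrial ribosomal protein genes, and its use on this list was added after seeing the data. With it 9 were higher (median 0.13), beside a median of -0.55 for all tested genes. MT-CO3 turned to -0.14 and was lower, MT-ATP8 turned to -0.07 and did not pass, and neither did MT-ND5 and MT-ND3. The direct comparison had all 13 higher with CoCl2 on both scales, with medians of 1.66 and 1.12. As a share of all counts the 13 mRNAs made up 5.17 ± 0.0973% in control, 5.71 ± 0.143% in CoCl2 and 2.85 ± 0.0276% in OD cells (SD, n = 3). On the TMM scale MT-ND1, a subunit of complex I, was at 1908 ± 74.8 CPM in control, 3993 ± 203 CPM in CoCl2 and 1462 ± 38.6 CPM in OD cells, and MT-CO3, a subunit of cytochrome c oxidase, at 6388 ± 195 CPM, 8232 ± 303 CPM and 2485 ± 2.91 CPM. Among 9 tested regulators of mitochondrial biogenesis, 3 were higher and 3 lower after CoCl2 at an adjusted p under 0.05, with a median of -0.08. These shares were 33.3% each, against 40.4% and 42.8% of all tested genes. With library totals alone 2 were higher and 6 lower, where the median of all tested genes was -0.55. YY1 rose after CoCl2 from 107 ± 1.36 CPM to 241 ± 5.54 CPM and GABPA, a subunit of an ETS factor, from 16.9 ± 0.850 CPM to 46.4 ± 2.53 CPM. PPARGC1B, a coactivator, fell from 31.7 ± 2.23 CPM to 7.09 ± 0.808 CPM. After OD 7 of the 9 were lower at an adjusted p under 0.05 (77.8%, against 33.3% of all tested genes), with a median of -0.35.

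The ribosomal proteins of the cytosol, whose many processed pseudogenes make their counts uncertain, were also examined. Of 85 tested genes 75 were higher (88.2%, against 40.4% of all tested genes) and 7 lower (8.24%, against 42.8%) after CoCl2 at an adjusted p under 0.05 (median 0.52). After OD 10 were higher (11.8%, against 32.3%) and 44 lower (51.8%, against 33.3%), with a median of -0.12. The CoCl2 counts depended on the scaling: with library totals alone 28 were higher and 28 lower (median 0.01), and after OD 14 higher and 40 lower (median -0.08). On that scale the medians of all tested genes were -0.55 after CoCl2 and 0.03 after OD, beside -0.05 and -0.01 on the TMM scale. As a share of all counts these genes made up 5.48 ± 0.227% in control, 5.70 ± 0.0792% in CoCl2 and 5.33 ± 0.0565% in OD cells (SD, n = 3).

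The scaling of the libraries set the size of the CoCl2 changes. With library totals alone the median of all tested genes shifted to -0.55 after CoCl2 and to -0.60 for CoCl2 against OD. There 64 of the 77 genes had a negative value after CoCl2 and 72 after OD, and the share of all tested genes was not counted. With TMM 50 of the 77 were negative after CoCl2 (64.9%, against 51.5% of all tested genes) and 72 after OD (93.5%, against 50.7%). A scaling moves every gene by nearly the same amount, so the distance between the median of the 77 genes and that of all genes stays as it is by construction. On the TMM scale this distance was -0.23 after CoCl2, -0.47 after OD and 0.15 for CoCl2 against OD. Where the set of tested genes changed as well, it moved: with DESeq2 on all 9 libraries it was -0.45, -0.47 and -0.01, and with no count filter -0.45, -0.48 and -0.0008, so that for CoCl2 against OD its sign turned.

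**Figure D5:**
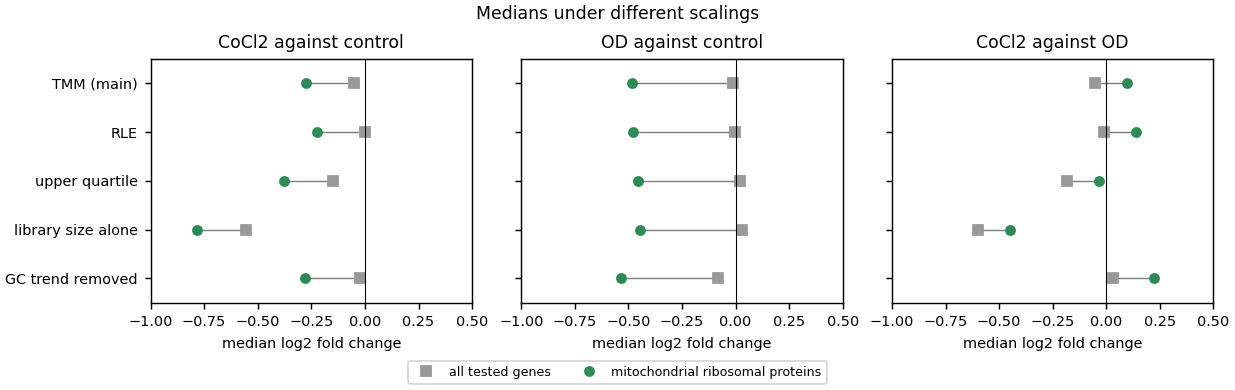
Median log2 fold change of all tested genes (grey squares) and of the mitochondrial ribosomal protein genes (green circles) for 5 ways of scaling or correcting the libraries (rows) in 3 comparisons (panels). The symbols keep their distance by construction in the 4 scalings, and both shift to the left with library totals alone in the CoCl2 comparisons.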

How the data were processed

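Per the study's methods, the authors used FastQC 0.11.9 for read quality, cutadapt 2.10 for adapters and STAR 2.7.5b for mapping of single-end reads to GRCh38.p13, with genes from GENCODE. They deposited raw counts for each gene symbol, with no normalization. The libraries were made with a stranded kit, and the counting tool, its strand setting and its treatment of reads that fit several genes are not given in the sources used here. No row lacked a gene symbol, and 0 sample columns were left unused.

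From these counts, edgeR 4.0.16 (R 4.3.3) kept 15944 symbols by its expression filter, computed TMM factors and fitted a robust quasi-likelihood model to the 9 libraries with 1 mean per group. Genes were called at a Benjamini-Hochberg adjusted p under 0.05 over all tested genes and a log2 fold change beyond 1. Standard errors were the log2 fold change divided by the root of the F statistic. Levels per kilobase used the MANE Select transcript of GENCODE release 44, matched by symbol, which also gave overlaps. On simulated counts for 14990 genes, edgeR recovered 199 of 200 changed genes for CoCl2 against control, with 0 false calls. In the data themselves 3724 genes were called lower and 3167 higher after CoCl2. Recovery with that many changed genes was not tested. Replicate pairs differed by more than sampling noise (chi-square divided by its degrees of freedom, 1.82 to 3.32).

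The genes and lists were chosen with earlier results of these data known, so counts over them are descriptions. Named with values were the 5 highest and 5 lowest log2 fold changes of each comparison with control, the 3 highest and 3 lowest of CoCl2 against OD, genes called against the main direction, the 3 highest and 3 lowest levels per kilobase in control, untested genes, and MRPL12, MRPS12, MRPL58, MRPL44, MRPS6, MRPS30, MRPS36 and MRPS18A to C. Other genes were named after their values were seen, to complete short lists. Alternatives were other scalings, count filters, a GC correction, DESeq2 1.42.0, a replicate block, fits without 1 library or on 6 libraries, and leaving out overlapping genes. The differentiated cells and tissues were not analysed here.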

Additional observations from a re-analysis of the deposited data

How the results depend on the processing

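Of 195 counts of called genes and medians under the alternatives for the 3 comparisons, 174 stayed close to the reported ones, 19 moved and 2 medians changed sign. A count cannot change sign, and some alternatives, such as leaving out a library of the third group, could change little. For CoCl2 against OD 17.5% of all tested genes were called higher and 23.8% lower, and 8.47% and 37.8% with library totals alone. The called mitochondrial ribosomal protein genes went from mostly higher (9 higher, 4 lower) to mostly lower on that scale. Judged by adjusted p alone, the counts were 44 lower and 22 higher after CoCl2, 66 lower and 3 higher after OD, and 26 lower and 38 higher for CoCl2 against OD. With library totals alone they were 35 and 1 after CoCl2 and 16 and 4 for CoCl2 against OD, with medians of -0.78 and -0.45. Upper-quartile factors gave medians of -0.38 after CoCl2 and -0.034 for CoCl2 against OD. In the latter 7 genes were then called lower (9.09%, against 26.7% of all tested genes). The GC correction gave 2 called lower (2.6%, against 20.2% of all tested genes) and a median of 0.22 for CoCl2 against OD. Leaving out genes with any same-strand overlap, an alternative added after seeing the data, gave 2 higher and a median of -0.35 after CoCl2 and 1 lower after OD, and leaving out genes with at least 25% shared bases gave a median of -0.40 after CoCl2. When 1 library was left out at a time, genes called lower numbered 15 to 20 after CoCl2, 3 to 4 after OD and 4 to 5 for CoCl2 against OD, where 8 to 9 were called higher, and the medians were -0.31 to -0.25, -0.49 to -0.46 and 0.08 to 0.14.

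Single values also changed sign. Library totals alone turned the CoCl2 values of MRPS12, MRPS30, MRPS36 and MRPS18C to -0.34, -0.10, -0.24 and -0.24. For CoCl2 against OD they turned MRPL20, MRPL3, MRPL46, MRPS6, MRPL51, MRPS12, MRPS36 and MRPS18B to -0.26, -0.38, -0.080, -0.52, -0.26, -0.023, -0.11 and -0.39, and the medians of the large and small subunit to -0.34 and -0.52. The small-subunit median, which is the value of MRPS6, was also -0.027 with at least 10 counts in every library, -0.0393 with no count filter and -0.10 with upper-quartile factors, and MRPS6 ranged from -0.00577 (without OD replicate 1) to 0.052 when 1 library was left out. The GC correction turned MRPL24, MRPL3, MRPS6 and MRPL21 for CoCl2 against OD to 0.11, -0.019, -0.10 and 0.39, and MRPL10 and MRPS26 after OD to -0.028 and -0.14. After OD, leaving out 1 library gave -0.21 to 0.076 for MRPL38 and -0.0755 to 0.10 for MRPL46, with the sign turned without OD replicate 1, and -0.40 to 0.16 for MRPS24, turned without OD replicate 2. The cause was not tested.

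Replicate numbers are shared between groups, but samples with the same number did not deviate together, with correlations of -0.005 to 0.038 over 9 pairs. With the replicate block the counts were 16 lower and 4 higher after CoCl2, 4 lower after OD, and 4 lower and 9 higher for CoCl2 against OD, equal to those without it. At these depths, genes of few counts such as MRPS24 had standard errors up to 0.301, beside a median of 0.056 after OD.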
